A study of Mus musculus with 5 samples.

Results

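The tropomyosin family of the mouse, the 4 genes Tpm1, Tpm2, Tpm3 and Tpm4, was examined transcript by transcript in cultured neural stem cells (NSCs) and STO cells. Members were all rows of the expression tables whose RefSeq transcript maps to one of these genes, which gave 21 of 40201 transcript rows and 4 of 25414 genes. NSCs (2 samples, strain label C57BL/6, passages 5 to 8) were primary cells from the cortex of E12.5 embryos, kept as monocultures with EGF, bFGF, heparin and B27. STO cells (3 samples, strain label C57BL/6, past passage 30) are a permanent line of SIM mouse embryonic fibroblasts resistant to thioguanine and ouabain, grown in serum and widely used as feeder cells. The STO group is therefore 1 line, in another medium, and cell type, culture medium and passage cannot be told apart in the comparison, which set a tissue stem cell against a somatic cell. No label says that the samples of a group came from separate cultures, so the spread between samples behind the p-values may be technical. The fit also draws the spread of each gene or row toward that of all those tested.

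Levels are FPKM, fragment numbers divided by transcript length and by the mapped fragments of the sample, and can be compared between genes because length is divided out. The summed FPKM was 442905 and 446393 in the NSC samples and 385485 to 399970 in the STO samples, and 51.4% to 54.5% of all rows were listed at 0. The fragments implied by the widths of the deposited confidence intervals, which are not counts, came to 1.52e+07 to 2.23e+07 per sample. An exact 0 can be no signal, a failed estimate, or shared reads given to other rows of the gene. All 21 tropomyosin rows had the status OK in all 5 samples, which bears only on a failed estimate. The labels were checked against marker genes. The 8 neural stem cell markers summed to 3841 to 4057 FPKM in NSCs and 0.369 to 0.501 in STO cells, and the 7 fibroblast markers to 5.08 to 5.12 and 1434 to 1538.

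Tropomyosins are coiled-coil proteins that pair and run head to tail along actin filaments, where they govern the access of myosin, cofilin and other partners. The family makes many forms through alternative starts, exons and ends, though in these data Tpm4 has a single row and the Tpm2 rows share their start and end. A start at the distal promoter gives the long, high molecular weight forms that are known from muscle and from the stress fibres of fibroblasts, while an internal promoter, with another first coding exon, gives the short, low molecular weight forms that are found in most cells and abundant in neural tissue. In striated muscle the same proteins carry the troponin complex.

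Because Tpm1 differed between the cell types in its start, the first coding exon behind 5 starts of the 4 genes is shown, read from the mm9 genome at the GENCODE annotation, 5′ to 3′ on the gene's strand, with the start codon in capitals. The first set belongs to the starts of the long forms, for which a coding length of 284 codons is the most common in the annotation: Tpm1 distal (chr9:66896826-66896939, minus strand) and Tpm2 (chr4:43536113-43536226, minus strand).
Tpm1 distal: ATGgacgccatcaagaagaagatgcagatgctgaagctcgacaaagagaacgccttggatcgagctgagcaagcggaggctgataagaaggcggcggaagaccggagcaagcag
Tpm2: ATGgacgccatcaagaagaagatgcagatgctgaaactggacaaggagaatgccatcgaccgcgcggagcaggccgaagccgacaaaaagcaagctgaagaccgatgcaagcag
The second set belongs to the starts of the short forms, most commonly of 248 codons: Tpm1 internal (chr9:66891385-66891516, minus strand), Tpm3 internal (chr3:89883654-89883785, plus strand) and Tpm4 (chr8:74659221-74659352, plus strand).
Tpm1 internal: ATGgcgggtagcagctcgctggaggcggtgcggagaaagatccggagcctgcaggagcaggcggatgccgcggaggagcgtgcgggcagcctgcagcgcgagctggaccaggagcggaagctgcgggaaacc
Tpm3 internal: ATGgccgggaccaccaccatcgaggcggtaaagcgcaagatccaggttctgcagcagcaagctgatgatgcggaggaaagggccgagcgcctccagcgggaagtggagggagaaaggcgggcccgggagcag
Tpm4: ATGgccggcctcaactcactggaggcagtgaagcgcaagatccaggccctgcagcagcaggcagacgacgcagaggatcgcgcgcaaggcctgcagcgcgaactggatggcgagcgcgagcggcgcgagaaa
Both exons of the first set are 114 bases long and those of the second all 132. Within the first set, identity was 81.6%. Within the second set it was lower, at 72% between Tpm1 and Tpm4, 69.7% between Tpm3 and Tpm4 and 63.6% between Tpm1 and Tpm3.

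All 4 tropomyosin genes were higher in STO cells than in NSCs. Among all 12292 genes tested, 41.9% were called higher in STO cells and 43.7% lower (limma on log2(FPKM + 1), Benjamini-Hochberg adjusted p under 0.05), so a call in itself sets no gene apart in this pair of cell types. The share of all genes whose NSC and STO samples do not overlap was not computed, so separate samples set none apart either. Summed over the family, the level was 404 and 420 FPKM in the NSC samples and 1037, 1088 and 1130 in the STO samples. That is 412 ± 11.6 (SD, n = 2) against 1085 ± 46.8 (SD, n = 3), a ratio of 2.63. In these bulk samples, more cells with a transcript and more RNA per cell cannot be told apart.

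Tpm1, the member with the highest FPKM in both cell types, was at 172 and 169 FPKM in the NSC samples and at 552, 582 and 611 in the STO samples. The STO values were all above the NSC values, and the means of 170 ± 2.28 (SD, n = 2) and 582 ± 29.9 (SD, n = 3) stood 3.41-fold apart. The difference on the log2(FPKM + 1) scale was 1.76 (SE 0.0684, limma adjusted p = 1.08e-06). Tpm2, known as the beta tropomyosin of muscle, was near 0 in NSCs, at 0.285 and 0.23 FPKM, and at 22.9, 21.6 and 24.7 FPKM in STO cells. The means were 0.258 ± 0.0388 (SD, n = 2) and 23.1 ± 1.55 (SD, n = 3), a ratio of 89.5 and a log2(FPKM + 1) difference of 4.26 (SE 0.0706, limma adjusted p = 2.29e-08). The ratio of Tpm2 rests on an NSC level so low that the added 1 compresses the log2 difference. Genes were tested from a mean of 1 FPKM in either cell type. Tpm2 reached this only in STO cells, so its direction was fixed in advance.

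Tpm3, whose short forms are part of the general cytoskeleton, showed the smallest difference of the family. It was at 123 and 136 FPKM in the NSC samples and at 193, 199 and 199 in the STO samples, which did not overlap. The means of 130 ± 9.45 (SD, n = 2) and 197 ± 3.79 (SD, n = 3) gave a ratio of 1.52 and a log2(FPKM + 1) difference of 0.60 (SE 0.0651, limma adjusted p = 0.000172). Values of Tpm3 are uncertain to the extent that reads from near-identical retrocopies, of which the annotation names Tpm3-rs2 and Tpm3-rs7, cannot be told apart from its own; rows for the retrocopies were not analysed here. Tpm4, a short-form gene of non-muscle cells, was at 109 and 115 FPKM in NSCs and at 269, 285 and 295 in STO cells. Its means were 112 ± 4.48 (SD, n = 2) and 283 ± 12.8 (SD, n = 3), a ratio of 2.53 and a log2(FPKM + 1) difference of 1.33 (SE 0.0653, limma adjusted p = 3.32e-06).

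**Figure D1:**
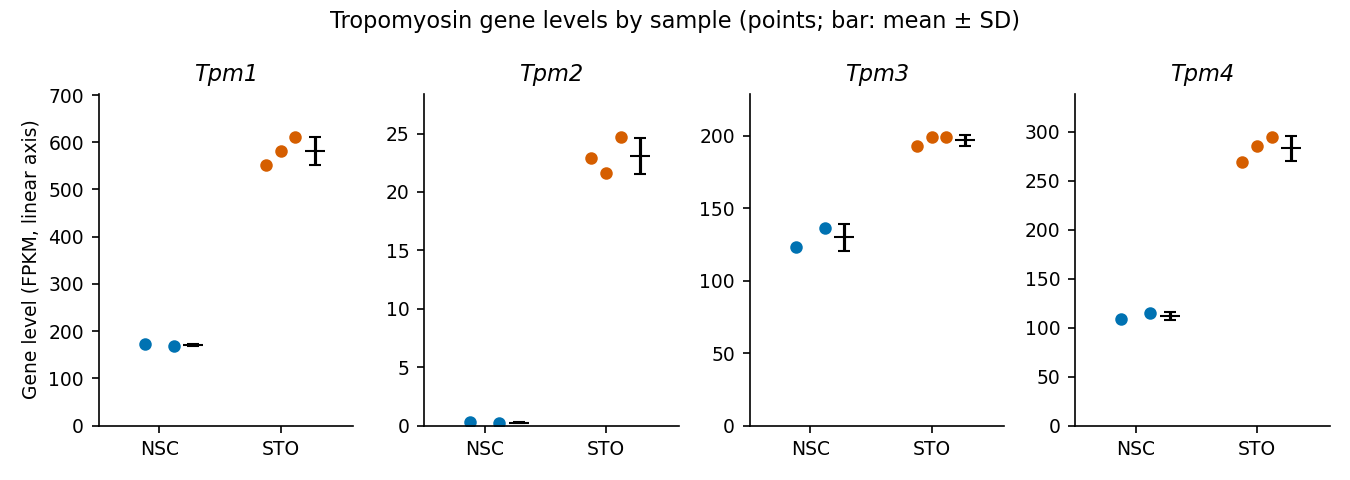
FPKM of each tropomyosin gene (vertical axes, linear, each from 0) in the NSC (blue) and STO (orange) samples; points are samples and black bars the mean ± SD of 2 NSC and 3 STO samples. In every panel the STO samples lie above the NSC samples, from a ratio of means of 1.52 for Tpm3 to 89.5 for Tpm2.

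The order of the levels differed between the cell types. In NSCs it was Tpm1, Tpm3, Tpm4 and Tpm2, and in STO cells Tpm1, Tpm4, Tpm3 and Tpm2, and no neighbours in either order overlapped over samples. Tpm1 made up 41.4% ± 1.72 of the family's FPKM in NSCs and 53.6% ± 0.457 in STO cells, while the part of Tpm3 was 31.5% ± 1.41 and 18.2% ± 0.491 (SD, n = 2 and n = 3). Tpm4 held nearly the same part in both, 27.1% ± 0.324 and 26.1% ± 0.126, and Tpm2 0.0627% ± 0.0112 and 2.13% ± 0.123. These parts depend on the length correction and on the split of shared reads. Fragments implied by the intervals were the square of 2 times the value over the upper half-width. They gave Tpm1 19.8% in NSCs and 10.6% in STO cells, and Tpm4 57.1% and 75.6%. Such figures follow the width of the interval and are not counts. Rows that share reads have wider intervals and so lower figures, while Tpm4 has a single row. They are therefore not a second estimate of the composition. Among all genes, Tpm1 ranked 366 and 380 by FPKM in the NSC samples and 75 to 86 in the STO samples. Tpm4 ranked 646 and 610 in NSCs and 181 to 206 in STO cells, and so passed Tpm3, which ranked 565 and 498, then 274 to 284.

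Kept apart, the 21 rows were far more unequal than the genes. In every sample 11 of them were listed at 0, and the other 10 passed the filter of a mean of 1 FPKM in either cell type and were tested. Only NM_001253738 of Tpm3 and NM_001001491 of Tpm4 reached that mean in both cell types. For the others the filter fixed the direction in advance. Of the 10, 6 were called higher and 4 lower in STO cells, where 38.1% of all 16257 rows tested were called higher and 39.0% lower. The 4 lower rows all belong to Tpm1 and Tpm3, 2 to each, although both genes were higher as a whole. For none of the 10 rows did a deposited interval of an NSC sample reach one of an STO sample. Rows listed at 0 in every sample of a cell type have an interval from 0 to 0 there, so for them the 0 fixed this in advance. The share of rows with separate intervals over the whole series was not computed.

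**Figure D2:**
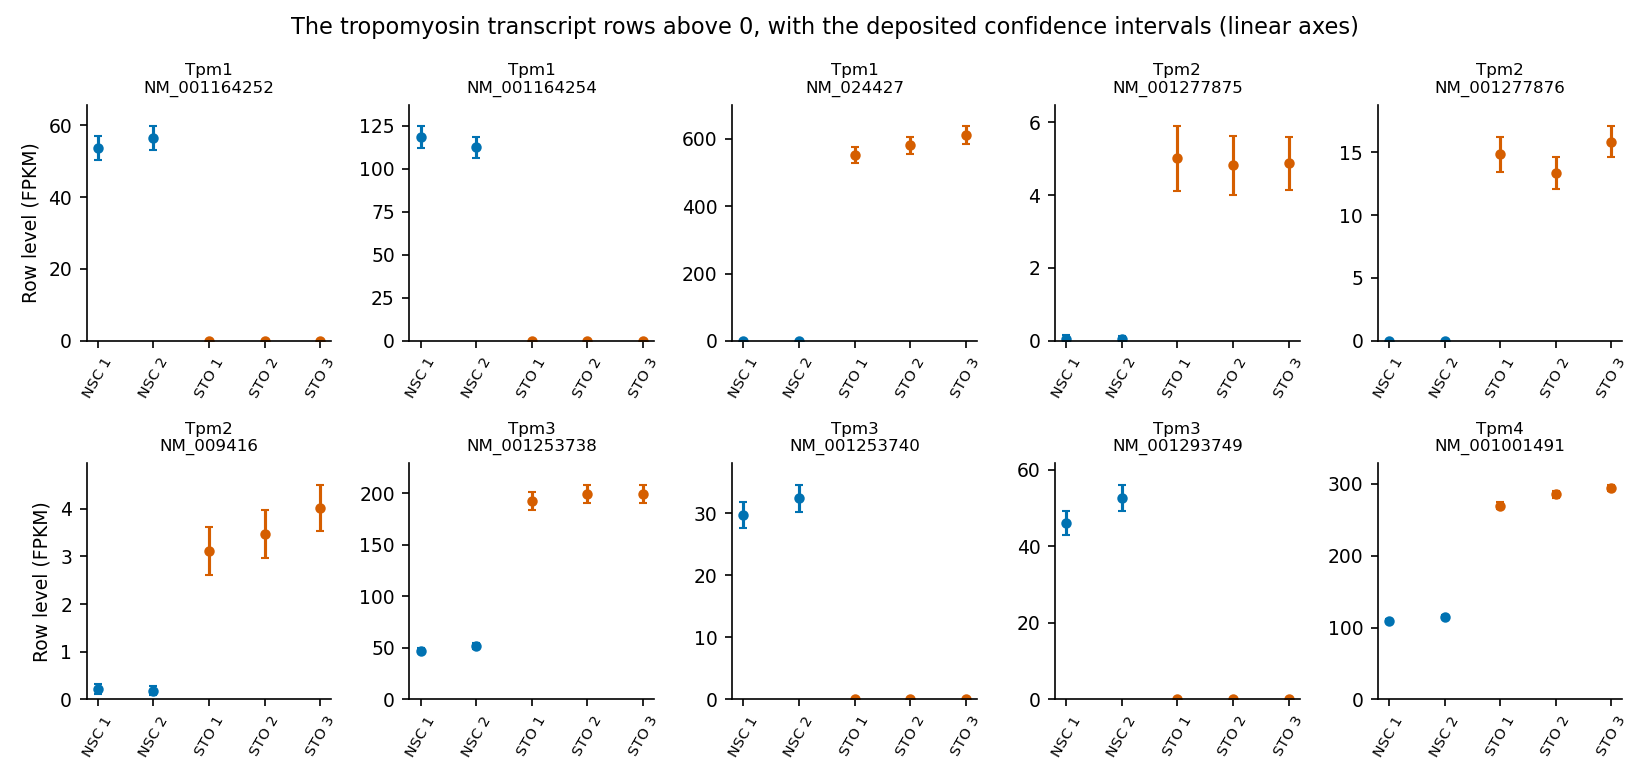
FPKM of the 10 tropomyosin transcript rows above 0 (vertical axes, linear, each from 0) in each NSC (blue) and STO (orange) sample; points are the deposited values and bars the deposited confidence intervals. Rows of Tpm1 are listed at 0 in one cell type or the other, rows of Tpm2 and Tpm4 are higher in STO cells, and NM_001253738 is the row of Tpm3 above 0 in both.

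In Tpm1 the transcripts listed in NSCs and in STO cells did not begin at the same start. NM_024427, which begins at the distal start and runs over chr9:66870400-66897020, was listed at 0 in both NSC samples and at 552, 582 and 611 FPKM in the STO samples, with intervals of 528 to 576, 557 to 607 and 585 to 638. It carried 100% of Tpm1 in every STO sample. NM_001164254 (chr9:66875697-66891678) was at 118 and 112 FPKM in the NSC samples, with intervals of 112 to 125 and 107 to 118, and at 0 in the STO samples. NM_001164252 (chr9:66870400-66891678) was at 53.7 and 56.4 FPKM in the NSC samples, with intervals of 50.4 to 56.9 and 53.1 to 59.7, and at 0 in the STO samples. Both NSC rows begin at the internal start, 5342 bases downstream, whose first coding exon is the one of 132 bases. They made up 67.7% ± 1.57 and 32.3% ± 1.57 (SD, n = 2) of Tpm1 in NSCs.

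The rows of Tpm1 also differ in where they end. Rows with the most distant end, at base 66870400, carried 32.3% ± 1.57 of the gene in NSCs and 100% in STO cells, and rows ending at base 66875697 carried 67.7% ± 1.57 and 0%. The third end, at base 66871649, belongs to 2 rows, 1 from each start, and both were listed at 0 in all 5 samples. The 5 other rows of the distal start, NM_001164248, NM_001164249, NM_001164250, NM_001164251 and NM_001164255, and the 2 other rows of the internal start, NM_001164253 and NM_001164256, were at 0 throughout.

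**Figure D3:**
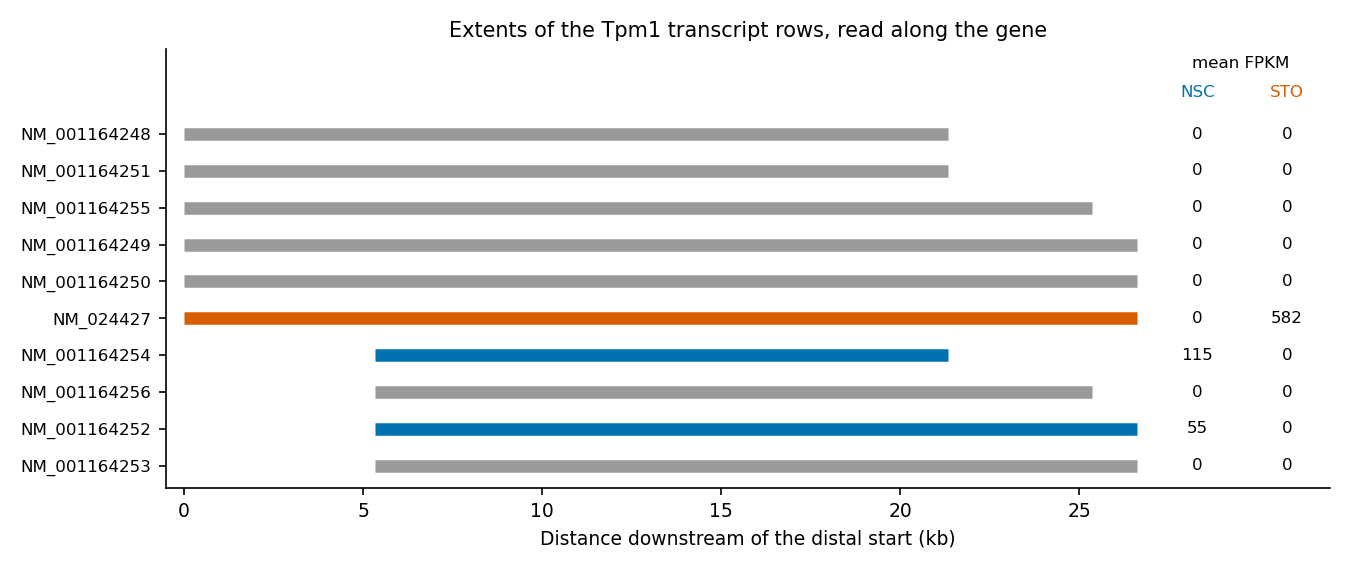
Extents of the 10 Tpm1 rows as distance downstream of the distal start in kb (horizontal axis), with the mean FPKM in NSCs (2 samples) and STO cells (3 samples) printed at the right. The orange row, above 0 in STO cells, begins at 0 and the 2 blue rows, above 0 in NSCs, begin 5342 bases downstream; grey rows were listed at 0 in every sample.

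The change in start is uncommon among genes with a choice. Of 730 genes with 2 or more starts and at least 10 FPKM in every sample, 71 (9.73%) had different leading starts in NSCs and STO cells. In 5 of the 730 (0.685%) the leading start differed and took at least 99% of the gene in every replicate of each cell type, and these were Csad, Oxr1, Pmp22, Snx10 and Tpm1. This is a count with no test.

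Rows at exactly 0 were common in these files. Among 2239 genes with 2 or more rows and at least 10 FPKM in every sample, 46.5% to 46.7% of the rows were listed at 0 in a sample, and 43.6% to 44.5% of the genes had a single row above 0. Among the 336 with 5 or more rows, 64.9% to 65.8% of the rows were at 0, with a median of 2 rows above 0. Tpm1, with 2 of 10 rows above 0 in NSCs and 1 of 10 in STO cells, stood at or near that median. The part of this in the 100% and 0% shares was not tested.

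Tested on the arcsine scale within their genes, 6 tropomyosin shares differed, 2 higher and 4 lower in STO cells, where 14.4% of the 8936 shares tested over all genes were called higher and 14.7% lower. Shares of 1 gene add up to 100% and so are not independent, and a row at 0 or 100% in every sample of a cell type shows no spread there, so its test rests on the spread of the other rows in the fit. For Tpm1 the share of NM_024427 was higher (limma adjusted p = 1.83e-07) and those of NM_001164254 (limma adjusted p = 1.44e-05) and NM_001164252 (limma adjusted p = 4.17e-05) were lower. Taken as levels, the 3 rows had limma adjusted p-values of 7.52e-07, 9.03e-07 and 9.69e-07. Each is listed at 0 in one cell type and passed the filters only through the other. The direction of its level and share was therefore fixed in advance, and the level test adds no support. No fold is given because of the 0.

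In Tpm3 both cell types used the internal start, and the difference lay among the rows that begin there. The distal start is represented by NM_001293748 and NM_022314, which were listed at 0 in all 5 samples, so the internal start, 6870 bases downstream, carried 100% of the gene throughout. NM_001253738 (chr3:89883443-89904824) was at 47.2 and 51.4 FPKM in the NSC samples and at 193, 199 and 199 in the STO samples. Its means of 49.3 ± 2.97 (SD, n = 2) and 197 ± 3.79 (SD, n = 3) gave a ratio of 3.99 and a log2(FPKM + 1) difference of 1.98 (SE 0.0527, limma adjusted p = 8.36e-06). This row accounted for all of Tpm3 in STO cells but for 38.4% and 37.7% of it in the NSC samples.

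The other NSC rows of Tpm3 had no value above 0 in STO cells. NM_001293749 (chr3:89883443-89902705), the row with the nearer end, was at 46.1 and 52.6 FPKM in the NSC samples. NM_001253740, which has the same locus as NM_001253738, was at 29.7 and 32.4 FPKM there. They made up 37.5% and 38.6%, and 24.1% and 23.7%, of Tpm3 in the NSC samples, so the 3 rows split the gene almost identically in both. By end, the nearer one carried 38.0% ± 0.769 of Tpm3 in NSCs and 0% in STO cells, and the more distant one 62.0% ± 0.769 and 100%. The share of NM_001253738 was higher in STO cells (limma adjusted p = 2.58e-06), and those of NM_001253740 (limma adjusted p = 5.42e-06) and NM_001293749 (limma adjusted p = 8.19e-06) were lower. The gene difference of 1.52-fold thus joins 1 row listed 3.99-fold higher in STO cells and 2 rows listed at 0 there. Reads shared by these rows are divided by a model, and the part of that division in the 3.99-fold was not tested. NM_001271764 and NM_001357581, of the internal start, were at 0 in every sample.

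**Figure D4:**
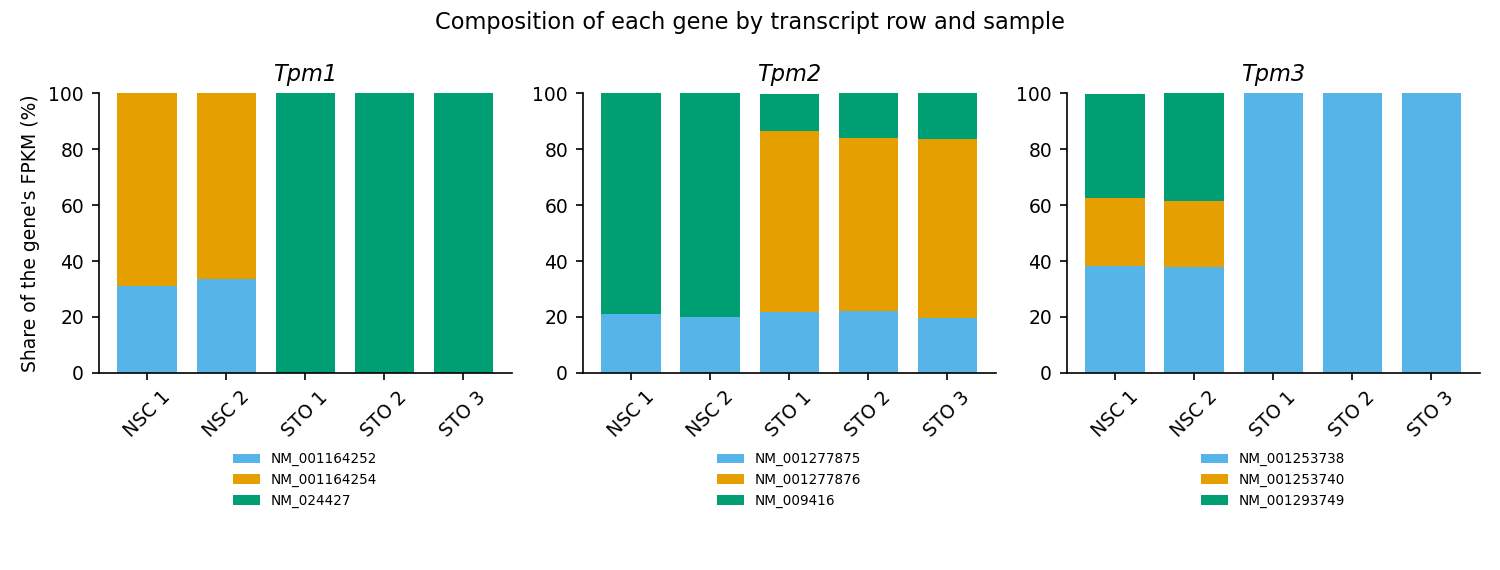
Share of each gene's FPKM in percent (vertical axis) from each of its rows above 0, as stacked bars for the 2 NSC and 3 STO samples. Tpm1 passes from 2 rows in NSCs to another row in STO cells, Tpm3 from 3 rows to 1 of them, and in Tpm2, whose NSC level is under 1 FPKM, NM_001277876 leads in STO cells.

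The 3 rows of Tpm2 share the locus chr4:43526598-43536426, so neither start nor end tells them apart. All were higher in STO cells, the only cell type where they passed the filter, so this direction was fixed in advance. NM_001277876 was listed at 0 in both NSC samples and at 14.8, 13.4 and 15.8 FPKM in the STO samples (limma adjusted p = 4.49e-06). It was the leading row of Tpm2 in STO cells, with 64.6%, 61.7% and 64% of the gene. NM_001277875 was at 0.0605 and 0.046 FPKM in the NSC samples, both with intervals that reach 0, and at 5, 4.81 and 4.87 in the STO samples. Its log2(FPKM + 1) difference was 2.48 (SE 0.0564, limma adjusted p = 5.35e-06). NM_009416 was at 0.225 and 0.185 FPKM in the NSC samples and at 3.11, 3.47 and 4.02 in the STO samples, a log2(FPKM + 1) difference of 1.91 (SE 0.105, limma adjusted p = 8.49e-05).

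The composition of Tpm2 in NSCs cannot be read with the same confidence. NM_009416 made up 78.8% and 80.0% of the gene in the NSC samples and 13.6% to 16.3% in STO cells, and NM_001277875 21.2% and 20.0%, against 19.7% to 22.2%. The NSC shares are of a gene total under 1 FPKM and were not tested for that reason. Tpm4 has a single row, NM_001001491 (chr8:74659191-74677028), so its row and gene values are the same and it has no share to compare. It also had the narrowest intervals of the family, at most 2.41% of the value on either side, where those of the Tpm1 rows reached 6% and those of the Tpm3 rows 7.14%.

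Put together by form, the starts of the long forms gave 0.285 and 0.23 FPKM in the NSC samples and 575, 603 and 636 in the STO samples. In NSCs all of this was Tpm2. In STO cells 552, 582 and 611 FPKM of it came from 1 row of Tpm1, NM_024427. As a part of the family it was 0.0627% ± 0.0112 (SD, n = 2) in NSCs and 55.7% ± 0.49 (SD, n = 3) in STO cells. By the fragments implied by the intervals, which are lowered by wide intervals, it was 0.151% and 14.8%. The 3 starts of the short forms gave 404 and 420 FPKM in the NSC samples and 462, 484 and 494 in the STO samples, a ratio of means of 1.17. Within this sum Tpm1 had a mean of 170 FPKM in NSCs and 0 in STO cells, while Tpm3 and Tpm4 were higher in STO cells. The families of the 2 cell types thus lay closer in the summed level of short-form starts than in that of long-form starts, which is a description of the listed rows with no test.

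In the 200 bases before each start, the CArG box that binds SRF was found at 0 of the 6 starts, with each motif searched on both strands, and in 0.916% of 45975 such windows over the annotation. TATAAA was found at 0 of the 6, against 8.36% of all windows. GGGCGG, the core of a GC box, was found at 5 of the 6 starts, against 39% of all windows. CATTCC, a motif of TEAD factors, was found only before the distal start of Tpm1, 56 bases upstream, and in 8.73% of all windows. These are matches of letters in a short window and say nothing of binding.

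Genes of the actin filament and of its regulation were taken as 8 lists of 63 genes. Of the 43 tested, 23 were called higher in STO cells, 14 lower and 6 not called. Over all 12292 genes tested, 41.9% were called higher and 43.7% lower. The median log2(FPKM + 1) difference was 0.58 in the lists against -0.02 over all genes. Those shares are also the background for the counts of each list below, and no list was tested as a set. A gene with a mean under 1 FPKM in one cell type passed the filter only through the other. Its direction was fixed in advance. Of the 6 actins, 3 were tested. Acta2, the smooth muscle actin that fibroblasts also make, was at 2.06 and 2.09 FPKM in NSCs and 46.3, 46.2 and 51.1 in STO cells (log2 difference 3.99, limma adjusted p = 1.96e-08). The cytoplasmic actins went opposite ways: Actb was at 1394 and 1229 FPKM in NSCs and 2255, 2294 and 1852 in STO cells (log2 difference 0.70, limma adjusted p = 0.00216), and Actg1 at 1183 and 1239 and then 609, 606 and 510 (log2 difference -1.08, limma adjusted p = 8.26e-05). Without NSC replicate 2 the call of Actb was lost, with a difference of 0.61 (limma adjusted p = 0.0659).

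Among proteins that sit on the tropomyosin filament, the tropomodulins cap its pointed end together with tropomyosin. Of 7 tropomodulins and leiomodins 3 were tested, 1 higher and 2 lower. Tmod3, the widely expressed form, was at 16.9 and 19.4 FPKM in NSCs and 28.4, 30.3 and 30.0 in STO cells (log2 difference 0.68, limma adjusted p = 0.000157). Tmod2, the neural form, was at 20.0 and 19.7 FPKM in NSCs and under 0.03 in every STO sample, and Tmod1 was at 7.82 and 7.37 FPKM in NSCs and listed at 0 in STO cells. The troponins, whose complex needs tropomyosin in striated muscle, were low: 2 of 8 passed the filter, Tnnt2 with at most 1.4 FPKM and Tnni2 with at most 1.44. Both were called higher in STO cells, but they passed only through their STO mean, so this direction was fixed in advance. Without STO replicate 3 the mean of Tnni2 fell under 1 FPKM and it was not tested.

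Of 7 caldesmon, calponin and transgelin genes, which bind actin filaments in smooth muscle and other cells, 3 were higher, 2 lower and 1 not called. Tagln was listed at 0 in NSCs and at 15.3, 15.3 and 16.9 FPKM in STO cells, and Cnn2 was at 24.2 and 25.7 FPKM in NSCs and 155, 149 and 161 in STO cells (log2 difference 2.59, limma adjusted p = 9.15e-08). Tagln3, a neural transgelin, was at 35.9 and 34.3 FPKM in NSCs and at most 0.0381 in STO cells, and Tagln2 at 371 and 302 and then 187, 182 and 182 (log2 difference -0.86, limma adjusted p = 0.000176). The transgelins therefore moved in both directions.

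Myosin II, the motor whose access tropomyosin governs, gave 3 higher, 3 lower and 1 not called of 7 tested among 8 genes. The heavy chain Myh9 was at 41.3 and 41.6 FPKM in NSCs and 175, 192 and 171 in STO cells (log2 difference 2.08, limma adjusted p = 4.31e-07), and the light chain Myl12a was at 79.9 and 77.6 and then 218, 217 and 231 (log2 difference 1.48, limma adjusted p = 1.07e-06). The heavy chain Myh14 was at 5.84 and 6.31 FPKM in NSCs and at most 0.00694 in STO cells, and the light chain Myl9 at 11.2 and 11.9 and then 4.54, 3.46 and 4.03 (log2 difference -1.33, limma adjusted p = 2.44e-05). All 9 severing and nucleation genes were tested, 5 of them higher, 2 lower and 2 not called. Gsn, which severs filaments, was at 13.2 and 13.8 FPKM in NSCs and 83.2 to 88.3 in STO cells, and the formin Diaph3 at 5.27 and 5.86 and then 27.3 to 30.7. Lower were the formin Fmn2, at 9.23 and 10.3 FPKM in NSCs and at most 0.018 in STO cells, and the cofilin Cfl1, at 1503 and 1489 and then 955 to 1012.

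Among 14 splicing regulators known for tropomyosin exons or for exons of that class, 10 were tested, with 5 higher, 4 lower and 1 not called. Mbnl2 was at 13.4 and 15.1 FPKM in NSCs and 97.3 to 112 in STO cells, and Mbnl1 at 11.1 and 10.9 and then 57.1 to 67.8 (log2 differences 2.77 and 2.41, limma adjusted p = 3.44e-07 and 5.14e-07). Qk was at 229 and 223 FPKM in NSCs and 54.1 to 63.3 in STO cells, and Ptbp2, the neural PTB protein, at 32.2 and 29.2 and then 13.8 to 15.9 (log2 differences -1.94 and -0.99, limma adjusted p = 1.21e-06 and 3.35e-05). Of the 4 SRF factors, the regulators of many actin cytoskeleton genes, Srf was at 10.9 and 11.4 FPKM in NSCs and 23.8 to 25.3 in STO cells, and its cofactor Mrtfa at 7.6 and 8.94 and then 14.2 to 15.4 (log2 differences 1.06 and 0.78, limma adjusted p = 4.49e-06 and 0.000113). Mrtfb was not called, and Myocd, the cofactor of smooth and heart muscle, was listed at 0 in every sample.

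**Figure D5:**
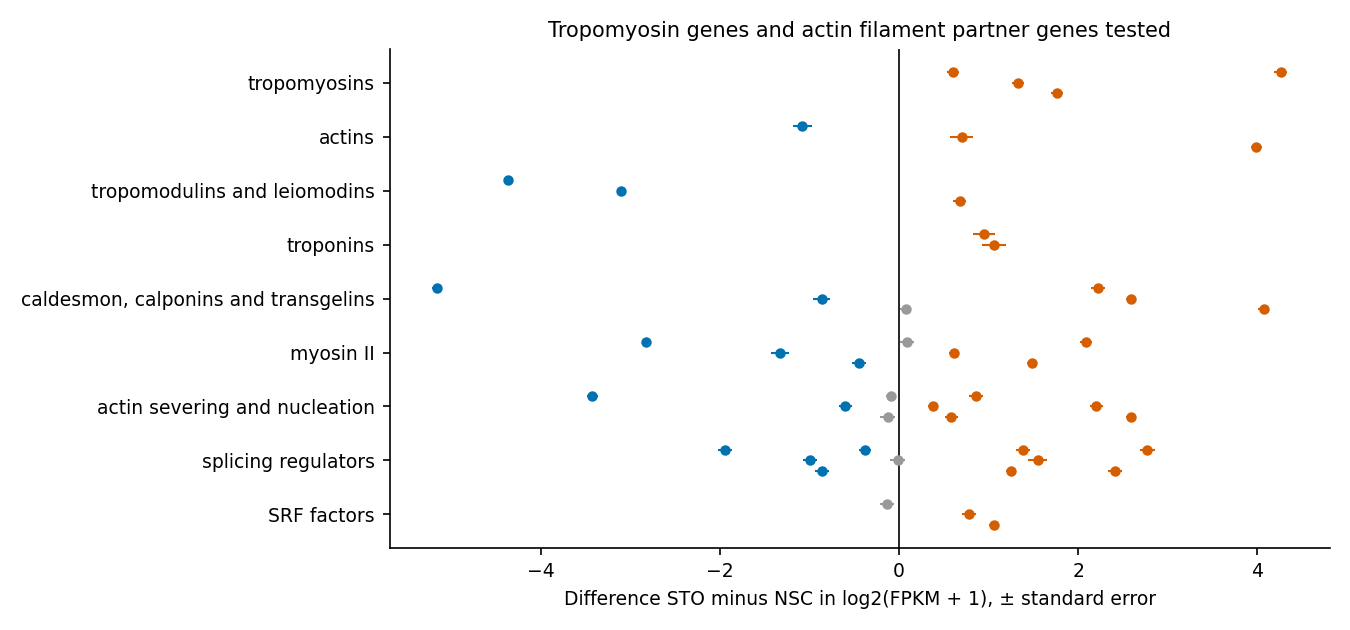
Difference between STO cells and NSCs in log2(FPKM + 1), positive where STO cells are higher (horizontal axis), for the 4 tropomyosin genes and the 43 partner genes tested, by list; bars are standard errors, orange and blue points are called higher and lower in STO cells, and grey points are not called. The 4 tropomyosins all lie to the right of 0, while 6 of the 8 lists have called members on both sides.

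By level over the 5 samples, the genes nearest to each tropomyosin were named by the root-mean-square difference in log2(FPKM + 1). For Tpm1 they were Hsp90b1 (0.24) and Prdx1 (0.32), and for Tpm2 Capn1 (0.03) and Arhgap24 (0.06). Ccng1 (0.07) and Eif4g1 (0.08) were nearest to Tpm3, and Igfbp4 (0.08) and Calu (0.18) to Tpm4. The measure takes in level and difference together and is a description over 5 samples.

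Muscle markers were read beside these values, since long tropomyosin forms are also muscle forms. The 9 skeletal and cardiac muscle markers summed to 0.831 to 0.989 FPKM in NSCs and 0.0409 to 0.0835 in STO cells, with none of them passing the filter. The 6 smooth muscle markers summed to 13.9 to 15.5 FPKM in NSCs and 17.6 to 18.2 in STO cells, and nearly all of this was Smtn, at 13.1 and 14.1 FPKM and then 17.2 to 17.7, the 1 marker tested (higher, limma adjusted p = 0.00124). Of the others, Myocd was at 0 and Myh11, Lmod1, Cnn1 and Des had means under 1 FPKM in both cell types; Myh11, Lmod1, Cnn1 and Myocd are also on the partner lists. Acta2 and Tagln, which smooth muscle also makes, are on the partner lists and not in this sum. In NSCs, the 4 neuron markers summed to 9.36 to 9.86 FPKM and the 2 astrocyte markers to 17.5 to 18.8, while in STO cells the first reached at most 0.0463 and the second at most 0.0163. The part of other cells in the tropomyosin values of NSCs was not tested.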

How the data were processed

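RNA-seq files of 5 samples, NSC replicates 1 and 2 and STO replicates 1 to 3, were analysed, with groups taken from the sample titles. Stranded mRNA libraries were made from total RNA and read in pairs. Per the study's methods and the submitters' processing notes, reads were trimmed, aligned to mm9 with HISAT2 (version given as 4.8.2) and quantified with Cufflinks 2.2.1 on RefSeq transcripts. The authors deposited FPKM values with confidence bounds, also in FPKM, per transcript and sample; no counts were used. Cufflinks divides reads shared by overlapping transcripts by a likelihood model, so a row's value depends on the other rows of its gene, and stated intervals cover this estimate, not biological spread.

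Of the 40201 rows, 39951 were matched to symbols through the RefSeq table of GRCm38.p6, used for names only. Coordinates are mm9, written from base 1, since 20825 row starts match GENCODE vM1 starts after adding 1 and 1227 as given. Rows of a symbol with overlapping loci were summed per gene. Genes and rows with a mean of at least 1 FPKM in either cell type were fitted with limma 3.58.1 (R 4.3.3, trend) on log2(FPKM + 1), cell type as the sole term, two-sided, with Benjamini-Hochberg adjustment over all features and a threshold of 0.05. Row shares were fitted on the arcsine of their square root, for genes with 2 or more rows, at least 1 FPKM in every sample and a mean share of at least 1%. The fits were first tested on simulated data. Starts within 100 bases were merged for the count over genes. First coding exons and upstream windows came from the mm9 genome and GENCODE vM1. One first coding exon is not reported here.

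Members and lists were chosen with earlier results of these data known, so their counts are descriptions. Named partner genes are, per list, up to 2 with the largest rise and up to 2 with the largest fall among called genes whose replicates do not overlap; beside each tropomyosin stand the 2 nearest genes by level. Any other gene named was chosen after its values were seen. Replicate numbers were not used to pair the samples. Deviations of samples with the same number correlated at 0.0075 and 0.061, and those with different numbers at -0.061 to 0.050. With 2 NSC samples, deviations are mirror images and each correlation has an opposite partner, so these values cannot show whether samples were paired. Alternatives tried were a pseudocount of 0.1, no filter, rescaling to TPM, quantile normalization, no trend, a replicate block, rows of status OK, other share scales and limits, diffSplice, leaving out each sample, and fragments implied by the intervals.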

Additional observations from a re-analysis of the deposited data

How the results depend on the processing

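The 4 tropomyosin genes were higher in STO cells and past the threshold under each of 12 alternatives. The log2 difference ranged from 1.73 to 2.01 for Tpm1, 4.21 to 6.02 for Tpm2, 0.53 to 0.78 for Tpm3 and 1.29 to 1.51 for Tpm4, with a largest adjusted p of 0.00213 (limma, Tpm3). Leaving out each sample in turn gave 1.73 to 1.80, 4.21 to 4.30, 0.53 to 0.67 and 1.29 to 1.37; where it left 1 NSC sample, that sample was assumed to vary like the STO samples. Counts of rows (6 higher, 4 lower) and of shares (2 higher, 4 lower) were the same in all of theirs. Rescaling to TPM moved the median of all genes by 0.146 and the part of calls that were higher from 48.9% to 54.8%. The replicate block changed no tropomyosin call, but over all genes it left 562 higher and 557 lower shares of 1284 and 1310; diffSplice gave 1867 and 1899 of 7736.

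By the fragments implied by the intervals, the family's composition moved. Tpm1 made up 19.8% in NSCs and 10.6% in STO cells, Tpm2 0.151% and 4.22%, and Tpm3 23.0% and 9.60%. Tpm4 made up 57.1% and 75.6%, and the starts of the long forms 0.151% and 14.8%. By construction, these are not counts and are not divided by length, and a wide interval from shared reads lowers them. Of the other values recomputed, 502 kept direction and call and 1, Actb without NSC replicate 2, lost it; Tnni2 was not tested without STO replicate 3, where its mean was under 1 FPKM. Rows with the same locus differ in exons that the files do not give.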
